A study of Rattus norvegicus with 15 samples.

Results

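The comparison set hepatocytes sorted with a DNA content of 4c against hepatocytes sorted with a DNA content of 2c, 2c being what a diploid cell holds until it replicates. Its members were the 10 arrays titled 4c and 2c with the experiment numbers 1 to 5, out of 15 arrays in the series, and each 4c array was set against the 2c array of its own experiment. All arrays held RNA of hepatocytes from female Wistar rats, with no treatment or altered gene named in the labels, and the ages were 12, 14, 6, 5 and 6 weeks in experiments 1 to 5. Cells were stained with the DNA dye Hoechst33342 and sorted by flow cytometry, and how the gates were set and how many animals gave each isolation were not given in the sources used here. The remaining 5 arrays, of 8c cells, entered the fit and gave 1 further contrast, 8c against 4c.

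Rodent hepatocytes are mostly diploid at birth and become polyploid as the liver matures, when cells replicate their DNA but do not complete cytokinesis, so that 4c cells carry either a pair of diploid nuclei or a single tetraploid nucleus. A diploid cell that has replicated its DNA and not yet divided also holds 4c. Hepatocytes further differ by their place in the lobule: those around the portal vein make urea and glucose, and those around the central vein take up ammonia into glutamine under the control of Wnt signals. The question the design puts is which transcripts differ between the first polyploid class and the diploid class.

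RNA of each fraction was hybridised to a single-colour Agilent rat array, and 16941 features were tested. A gene symbol was known for 11145. A level is the log2 of the processed signal minus the 75th percentile of the array, so 0 is that percentile and a level is a share of the RNA of a fraction and not an amount per cell. A feature was called well above background where the scanner software set that flag. A gene passed where limma, fitted over all 15 arrays with the experiment as a block, gave an adjusted p (Benjamini-Hochberg) under 0.05. Nothing states that the fractions of different experiments came from different animals beyond their being independent experiments, so the p values measure the spread between these isolations.

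Genes that define hepatocytes were high in both fractions. Alb, which encodes serum albumin, had levels of 6.59, 7.28, 7.23, 6.99 and 7.44 in the 2c arrays of experiments 1 to 5 and 6.73, 7.22, 7.57, 6.89 and 6.78 in the 4c arrays. The groups overlapped, and the summed level of 33 hepatocyte genes ran from 10.4 to 10.96 in 2c and from 10.5 to 10.8 in 4c (log2). Transcripts of pancreatic acinar cells were abundant in part of the arrays. Prss1, a trypsinogen gene, was at 5.14 and 7.47 in 2c of experiments 1 and 2 and at 5.05 in 4c of experiment 2, while the other 7 arrays were at -7.10 or below. Of 26 acinar genes 0 passed with limma (5 lower at an unadjusted p under 0.05, as were 10.1% of all features, while 5.83% were higher), with a median difference of -2.63 and of -9.30 in experiment 1, and their part in the results was not tested. The medians of the main lists are therefore also given without experiments 1 and 2.

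In 4c cells 45 features were higher and 172 were lower than in 2c cells, which is 0.266% and 1.02% of those tested, and the median difference of all features was -0.03 (log2). Among those that fell, 29 were in lists of other liver cells, MHC class II or matrix, 7 in cell cycle lists, 6 in zonation lists and 125 in no list. They included glutamine synthetase and other genes of the central vein, and helicase subunits that license DNA replication. Fewer genes rose, and among those with a symbol Bst2 had the largest rise. Of the 217 calls, 216 had the same sign in all 5 experiments, the exception being Pcp4l1, which was at -6.89 in 2c and -6.78 in 4c of experiment 1. By at least 2-fold 5 were higher and 101 lower, and by at least 8-fold 31 were lower.

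**Figure D1:**
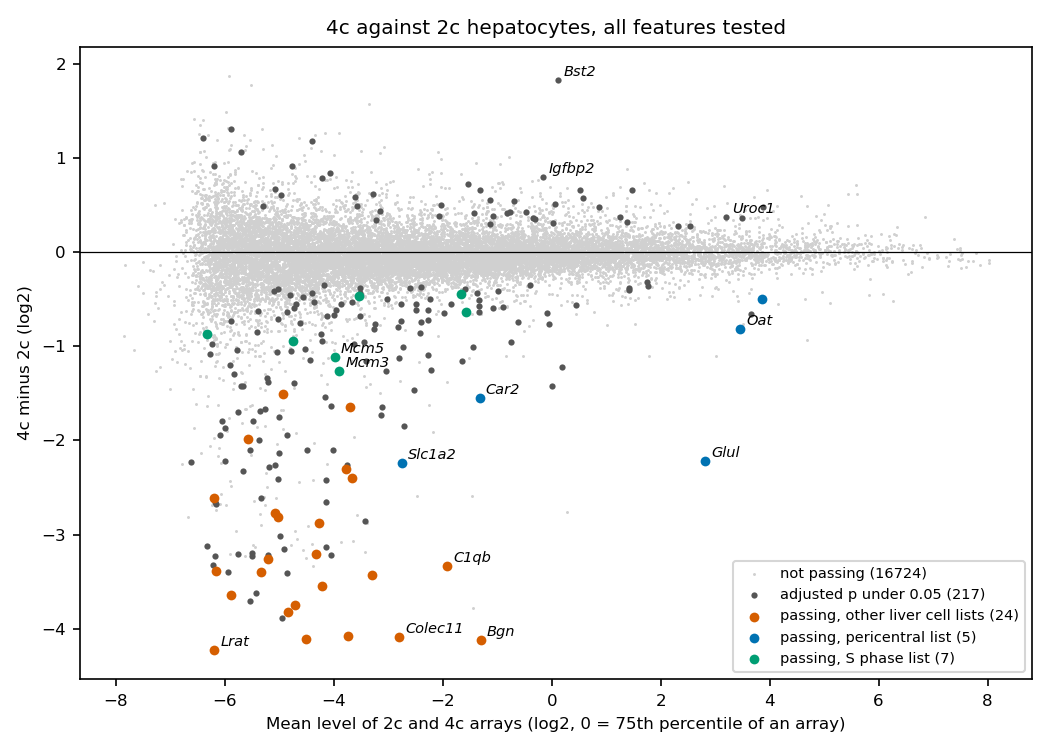
Difference of 4c minus 2c (log2, vertical) against the mean level of the 10 arrays (log2, horizontal) for the 16941 features tested; each point is a feature. The 217 passing features include 5 pericentral genes, 7 S phase genes and markers of other liver cells, all below 0, while Bst2 stands above 0.

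The calls lay close to the threshold, with a lowest adjusted p of 0.0112, and rested on the spread estimated from all 15 arrays. With the 10 arrays of 2c and 4c alone, limma called 0 higher and 0 lower (731 and 1345 at an unadjusted p under 0.05; lowest adjusted p 0.0664). Without a replicate block 0 were higher and 3 lower. The split also moved with the scaling: it was 45 higher and 102 lower with quantile normalization, 44 and 91 with the median as the scaling point, which raised the median of all features to 0.13. Scaling to the 75th percentile of every probe gave 73 and 114. Leaving out experiment 5 left 0 and 3, and leaving out experiments 1 to 4 in turn left 2 and 47, 5 and 20, 0 and 20, and 61 and 127. The level on each array is therefore given for the genes described, and the same sign in all 5 experiments was seen in 897 features upward (5.29%) and 1465 downward (8.65%).

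Within the cell cycle lists, the genes that passed were those of S phase. Of 40 tested genes of S phase and replication licensing, 7 were lower in 4c and 0 higher, with a list median of -0.30 (-0.42 without experiments 1 and 2). Of the 40, 17 had the same downward sign in all 5 experiments. Mcm2, Mcm3 and Mcm5 encode subunits of the helicase that is loaded at replication origins, Gins3 a subunit of the complex that activates it, Prim1 the small subunit of primase, Pold1 the catalytic subunit of DNA polymerase delta and Ccne1 cyclin E1, which drives entry into S phase.

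These genes are known as targets of the E2F factors, which bind near the start of replication genes. The windows from 250 bases before to 30 bases after the annotated start of 5 of the 7 genes are shown because the list shares this known regulator: 4 hold words that E2F factors bind, and Ccne1 holds none of those searched. They come from RefSeq on the GRCr8 assembly and are read 5′ to 3′ along the gene, and capitals mark the E2F words.
Mcm2: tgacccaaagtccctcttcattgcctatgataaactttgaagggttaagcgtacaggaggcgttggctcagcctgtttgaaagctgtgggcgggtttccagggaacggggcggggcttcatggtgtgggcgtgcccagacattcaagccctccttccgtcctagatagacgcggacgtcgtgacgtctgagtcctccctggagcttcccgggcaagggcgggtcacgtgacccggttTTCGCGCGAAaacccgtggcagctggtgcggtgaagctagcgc
Mcm3: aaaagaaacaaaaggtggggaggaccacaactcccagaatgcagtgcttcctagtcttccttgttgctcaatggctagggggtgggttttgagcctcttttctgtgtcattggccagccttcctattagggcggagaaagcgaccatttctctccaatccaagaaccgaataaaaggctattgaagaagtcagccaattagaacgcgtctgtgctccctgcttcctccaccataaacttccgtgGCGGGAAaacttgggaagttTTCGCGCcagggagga
Mcm5: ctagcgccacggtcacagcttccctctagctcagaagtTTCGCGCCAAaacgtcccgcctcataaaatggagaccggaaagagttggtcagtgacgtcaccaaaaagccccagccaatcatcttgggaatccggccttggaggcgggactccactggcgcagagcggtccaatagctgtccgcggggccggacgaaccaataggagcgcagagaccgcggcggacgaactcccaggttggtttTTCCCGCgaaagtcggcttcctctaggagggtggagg
Prim1: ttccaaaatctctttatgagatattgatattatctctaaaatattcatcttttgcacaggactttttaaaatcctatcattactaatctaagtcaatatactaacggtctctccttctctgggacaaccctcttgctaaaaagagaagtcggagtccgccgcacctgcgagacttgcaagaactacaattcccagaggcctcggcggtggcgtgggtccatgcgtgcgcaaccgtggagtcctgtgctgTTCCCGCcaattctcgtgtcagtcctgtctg
Ccne1: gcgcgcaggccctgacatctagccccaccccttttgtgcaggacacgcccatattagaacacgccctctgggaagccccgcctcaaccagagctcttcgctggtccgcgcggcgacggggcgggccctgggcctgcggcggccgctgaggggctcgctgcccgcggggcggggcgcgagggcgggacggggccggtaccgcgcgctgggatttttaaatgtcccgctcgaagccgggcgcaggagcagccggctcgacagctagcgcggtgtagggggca
The windows lie at chr4:122918065-122918344 (minus strand) for Mcm2, chr9:30733717-30733996 (minus strand) for Mcm3, chr19:13488563-13488842 (plus strand) for Mcm5, chr7:1031212-1031491 (plus strand) for Prim1 and chr1:99927880-99928159 (minus strand) for Ccne1. The words searched on both strands were TTCCCGC as well as TTGGCGC, then also TTCGCGC together with TTGCCGC, and overlapping matches were counted. Mcm2 held 2 overlapping matches at positions -13 and -10 from the start, Mcm3 2 at -6 and 15, Mcm5 3 at -212, -209 and -7, and Prim1 1 at -1. A match was found in 6 of the 7 genes that passed and in 17 of 25 other S phase genes with a window, against 8.79% of 33469 RefSeq windows of the same length and 16.0% of the tested features with a window. Among all features called lower with a window it was 23 of 110, and among those called higher 4 of 26. These are matches of letters and not measured binding.

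Mcm2 had levels of -1.30, -1.95, -1.24, -0.94 and -0.81 in the 2c arrays of experiments 1 to 5 and -2.11, -2.16, -1.88, -1.48 and -1.81 in the 4c arrays. The 2c array of experiment 2 lay among the 4c arrays, and the 4c array was the lower in each of the 5 experiments. The fitted log2 difference was -0.64 (SE 0.12, limma adjusted p = 0.0426, n = 5). Mcm5 had levels of -3.53, -5.89, -3.11, -2.09 and -2.51 in 2c and -4.48, -6.37, -4.85, -2.86 and -4.12 in 4c. Experiment 2, from the oldest rats, was lowest in both fractions, and the groups overlapped across experiments although the 4c array was the lower in each. The gene was above background on 4 of 5 arrays of each fraction. The log2 difference was -1.11 (SE 0.20, limma adjusted p = 0.0368). Mcm3 followed the same pattern, with a difference of -1.27 (SE 0.22), but the size of its fall depended on the processing. Over 29 alternatives of processing and arrays used, the Mcm3 difference ran from -1.60 to -0.17, and its call held in 6. The Mcm5 difference ran from -1.38 to -0.53 over 28 alternatives, and its call held in 5. The Mcm3 probe is placed on chromosome X in the rn4 positions given for the probes, but the gene on chromosome 9 in GRCr8.

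Prim1 was at -1.23, -1.74, -1.50, -1.31 and -1.40 in 2c and at -1.78, -1.97, -2.02, -1.67 and -1.98 in 4c. Its lowest 2c array, that of experiment 2, lay below the highest 4c array, that of experiment 4, and no other 2c array did. The log2 difference was -0.45 (SE 0.08, limma adjusted p = 0.0338). Ccne1 was at -4.44, -5.63, -4.30, -3.59 and -3.42 in 2c and at -5.16, -6.53, -5.22, -4.27 and -4.90 in 4c, a difference of -0.94 (SE 0.17, limma adjusted p = 0.0386). Pold1 fell by 0.47 (SE 0.09) and Gins3, above background on 3 of 5 2c arrays and on no 4c array, was at least 1.59-fold lower. The counts of this list depended on the processing: 0 of the 40 passed with the median as the scaling point, 1 with quantile normalization, 1 with normexp background correction and 3 when scaled to the 75th percentile of every probe. None passed when experiment 1, 3 or 5 was left out, and 1 passed without experiment 2 or without experiment 4. The median of the list lay between -0.42 and -0.14 in the 29 alternatives.

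**Figure D2:**
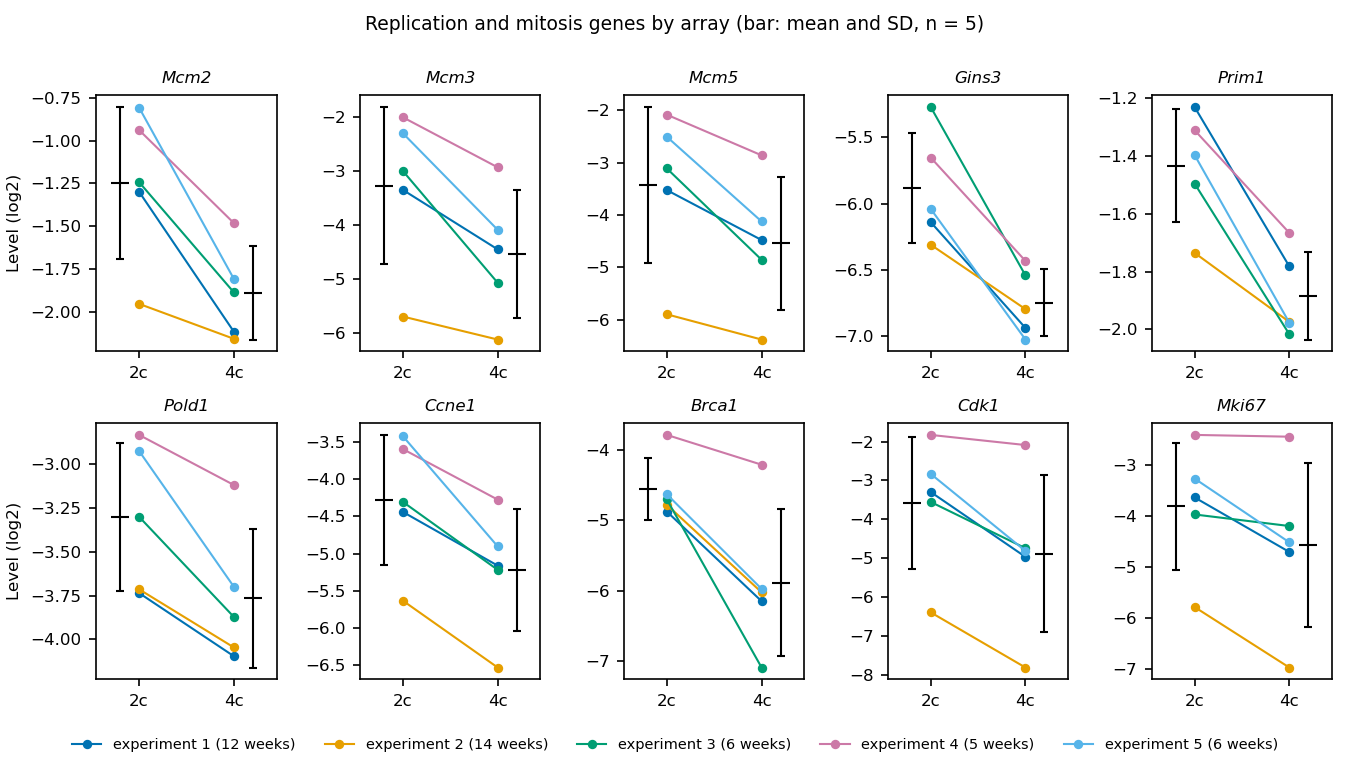
Levels (log2, 0 is the 75th percentile of the array) of 10 genes of replication and mitosis in the 2c and 4c arrays; lines join the arrays of 1 experiment, and the bars give the mean and SD of 5 arrays. The scale differs between panels. The 4c array lies below the 2c array in all 5 experiments for each gene shown, and Cdk1 and Mki67 did not pass.

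Genes of mitosis showed larger spreads. Of 52 tested genes of G2 phase and mitosis 0 passed with limma (11 lower and 1 higher at an unadjusted p under 0.05). Over all features these unadjusted shares were 10.1% lower and 5.83% higher. In the list 14 had a downward and 2 an upward sign in all 5 experiments. The list median was -0.32 (-0.08 with arrays below background set to their floor). Cdk1, the cyclin-dependent kinase of mitosis, was at -3.30, -6.39, -3.55, -1.83 and -2.83 in 2c and at -4.96, -7.81, -4.74, -2.09 and -4.81 in 4c. The difference of -1.30 (SE 0.34) did not pass (limma adjusted p = 0.106), although the 4c array was the lower in 5 of 5 experiments. Mki67, a marker of cycling cells, had a difference of -0.75 (SE 0.24, adjusted p = 0.164), with near-equal levels of -2.42 and -2.45 in 2c and 4c of experiment 4, from the youngest rats. Aurka, a spindle kinase, had a difference of 0.52 (SE 0.17, adjusted p = 0.182). In 8c against 4c cells, by contrast, 37 of the 52 were higher, where 0.638% of all features were called higher and 0.0118% lower, and the median of the list was 2.64. Of the 52, 20 reached the filter on dim features only with 8c arrays counted, 14 of them among the 37, so that count is no measure of how much of the list rose. Both contrasts use the same 4c arrays.

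Some further genes of replication and chromosome upkeep, outside the lists and picked after their values were seen, also passed. Brca1, of recombination repair, fell by 1.34 (SE 0.27), and was above background on 3 of 5 4c arrays. Tcf19, a factor of late G1, fell by 0.75 (SE 0.15), Ncapd3, a condensin subunit, by 0.53 (SE 0.08) and Rfc2, a subunit of the clamp loader, by 0.39 (SE 0.08). Of these, Tcf19 and Ncapd3 were higher again in 8c than in 4c, by 1.46 and 0.63, as was Prim1 by 0.46, and the other S phase genes that had fallen did not pass in that contrast. Of all 40 S phase genes 9 were higher and 0 lower in 8c than in 4c, with a median of 0.32. Among all 172 features called lower, 13 were higher in 8c than in 4c and 0 were lower. Among 15 G1 cyclins and CDK inhibitors 0 passed with limma (1 lower at an unadjusted p under 0.05), and Ccnd1, the cyclin of growth factor response, had a difference of 0.13 (SE 0.13, adjusted p = 0.663). Ccne1 was the only one of 23 tested ploidy regulators that passed. E2f1 had a difference of -0.49 (SE 0.19, adjusted p = 0.253), E2f7, a repressor tied to polyploidisation, of -0.02 (SE 0.22, adjusted p = 0.974), Anln, a scaffold of the cleavage furrow, of -0.28 (SE 0.16, adjusted p = 0.423) and Cdkn1a, the p53-induced inhibitor, of 0.17 (SE 0.14, adjusted p = 0.618). Of 23 p53 targets 0 passed with limma (1 lower and 6 higher at an unadjusted p under 0.05; median 0.02). Over all features the unadjusted shares were 10.1% lower and 5.83% higher. The differences of the list ran from -0.21 to 1.21, and 5 had an upward and 1 a downward sign in all 5 experiments (5.29% and 8.65% of all features). The 2 brightest, Btg2 and Perp, had differences of 0.41 (SE 0.09, limma adjusted p = 0.0674) and 0.15 (SE 0.06, limma adjusted p = 0.292).

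Genes of the hepatocytes around the central vein were lower in 4c. Of 39 tested pericentral genes 5 were lower and 0 higher, 22 had a downward sign in all 5 experiments and 0 an upward sign, and the list median was -0.33 (-0.45 without experiments 1 and 2; -0.45 to -0.17 over all 29 alternatives). Glul, Slc1a2, Car2 and Oat were among the 5, and 4, 2, 3, 4 and 0 of the list passed when experiments 1 to 5 were left out in turn. Glul encodes glutamine synthetase, which the last hepatocytes before the central vein use to bind ammonia, and its levels were 3.20, 3.89, 3.77, 4.24 and 4.54 in 2c and 1.27, 1.18, 1.27, 2.71 and 2.12 in 4c. The groups did not overlap. The gene was 4.65-fold lower in 4c (SE 0.28 on the log2 scale, limma adjusted p = 0.0140).

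Slc1a2, the glutamate transporter of the same cells (probe at chr3:87988366-87988425 in rn4), was at -2.04, -1.70, -1.89, -1.54 and -0.97 in 2c and at -3.95, -3.97, -4.92, -3.18 and -3.32 in 4c. The groups did not overlap, and the gene was 4.72-fold lower (SE 0.28 on the log2 scale, adjusted p = 0.0141). Oat, ornithine aminotransferase, was at 3.75, 4.12, 3.70, 3.40 and 4.33 in 2c and at 3.16, 3.36, 2.81, 2.56 and 3.34 in 4c. Its groups stood apart by a narrow margin, with a difference of -0.81 (SE 0.11, adjusted p = 0.0145). Car2, carbonic anhydrase 2, was at -0.68, -0.48, -0.77, -0.53 and -0.28 in 2c and at -1.74, -1.85, -2.85, -1.89 and -2.17 in 4c, a difference of -1.55 (SE 0.15, adjusted p = 0.0112) with no overlap.

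Many pericentral genes had the same sign and did not pass. Slc13a3, a dicarboxylate transporter, had a difference of -1.10 (SE 0.28, adjusted p = 0.102) and Cyp7a1, the rate-limiting enzyme of bile acid synthesis, also of -1.10 (SE 0.28, adjusted p = 0.0934). Cyp7a1 spread far more between experiments than between fractions, from -2.36 to 1.31 in 2c. The drug-metabolising Cyp1a2 and Cyp2e1 had differences of -0.55 (SE 0.13, adjusted p = 0.0783) and -0.45 (SE 0.10, adjusted p = 0.0682), and Rhbg, an ammonium channel, of -0.83 (SE 0.23, adjusted p = 0.120). All 5 of these were lower in 4c in 5 of 5 experiments.

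Of 20 genes of the Wnt pathway, which maintains pericentral expression, 1 passed. Axin1, a scaffold of the complex that degrades beta-catenin, was at 0.03, 0.43, 0.53, 0.11 and 0.56 in 2c and at -0.31, -0.43, -0.61, -0.39 and -0.40 in 4c. The groups did not overlap, and the difference was -0.76 (SE 0.11, adjusted p = 0.0216). The Wnt targets Axin2 and Tbx3 had differences of -0.73 (SE 0.23, adjusted p = 0.172) and -0.62 (SE 0.18, adjusted p = 0.128). Ctnnbip1, an inhibitor of beta-catenin outside the list and picked after its values were seen, rose by 0.42 (SE 0.07, adjusted p = 0.0368). Lgr5, a receptor of pericentral cells, was not among the features tested.

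Genes of the periportal and midlobular hepatocytes had the opposite median. Of 40 periportal genes 1 was higher and 0 lower, 14 had an upward and 0 a downward sign in all 5 experiments, and the median was 0.17 (0.18 without experiments 1 and 2; 0.13 to 0.33 over the alternatives). Uroc1, urocanase of histidine breakdown, was at 3.21, 3.16, 3.01, 2.80 and 2.89 in 2c and at 3.31, 3.69, 3.31, 3.22 and 3.40 in 4c. The groups met without overlap, at 3.21 and 3.22, and the rise was 0.37 (SE 0.08, adjusted p = 0.0467). Hal, the enzyme before it in the same pathway, had a difference of 0.38 (SE 0.11, adjusted p = 0.135) and was higher in 4c in 5 of 5 experiments. The urea cycle genes Ass1, Arg1 and Cps1 had differences of 0.31, 0.23 and -0.03, with adjusted p of 0.191, 0.153 and 0.955. Of 8 midlobular genes, with a median of 0.19, 1 passed, Igfbp2, a binding protein of insulin-like growth factors. It was at -0.83, -1.06, -0.79, 0.29 and -0.43 in 2c and at -0.12, -0.42, 0.27, 0.77 and 0.68 in 4c, a rise of 0.80 (SE 0.14, adjusted p = 0.0349) with overlapping groups and the 4c array higher in 5 of 5 experiments. Hamp, hepcidin of iron balance, had a difference of 0.40 (SE 0.09, adjusted p = 0.0641).

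**Figure D3:**
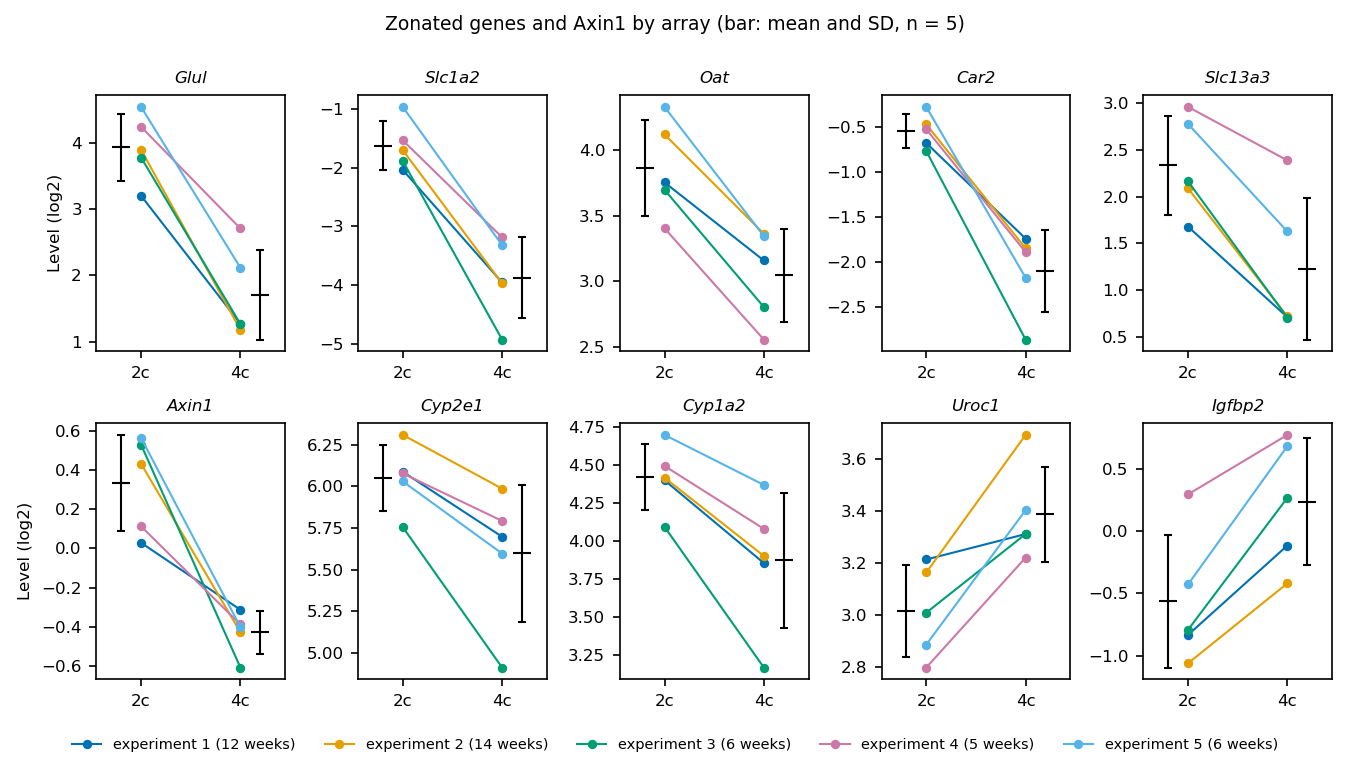
Levels (log2, 0 is the 75th percentile of the array) of zonated genes and Axin1 in the 2c and 4c arrays; lines join the arrays of 1 experiment, and the bars give the mean and SD of 5 arrays. The scale differs between panels. Glul, Slc1a2, Oat, Car2 and Axin1 separate the groups without overlap, and Uroc1 and Igfbp2 are higher in 4c in all 5 experiments.

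Further genes fell with the same sign in all 5 experiments. Cryab, Eln, Fmo1 and Csrp2 stand outside the lists and were picked after their values were seen. Cryab, a small heat shock protein, was at -1.77, -2.27, -2.71, -2.82 and -1.88 in 2c and at -2.97, -3.49, -4.35, -4.39 and -4.46 in 4c, with no overlap and a difference of -1.65 (SE 0.19, adjusted p = 0.0112). Eln, elastin, fell by 1.73 (SE 0.20, adjusted p = 0.0112), although its groups overlapped, as both fractions were higher in experiments 4 and 5. Fmo1, a flavin monooxygenase, fell by 1.42 (SE 0.25), Csrp2, a LIM protein, by 1.22 (SE 0.17) and Gstp1, a glutathione transferase and the only passing member of 18 Nrf2 targets, by 1.75 (SE 0.25).

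The rises were small beside the falls, and 42 of the 45 features stood in no list. Bst2, tetherin, an interferon-induced membrane protein that holds back budding virus particles, was at -0.67, -0.64, -1.15, -0.27 and -1.29 in 2c and at 1.87, 0.91, 0.88, 0.76 and 0.71 in 4c. The groups did not overlap, and the gene was higher by 3.56-fold (log2 SE of 0.25; limma adjusted p = 0.0158). In 8c it had a mean level of -0.21 (difference from 4c -1.24, adjusted p = 0.0743). Its probe lies at chr16:18698676-18698735 in rn4.

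Interferon-stimulated factors bind paired GAAA words, and the window of Bst2 from RefSeq (GRCr8, chr16:18254938-18255217, minus strand) held 2 overlapping matches, at positions -131 and -125, which are in capitals.
Bst2: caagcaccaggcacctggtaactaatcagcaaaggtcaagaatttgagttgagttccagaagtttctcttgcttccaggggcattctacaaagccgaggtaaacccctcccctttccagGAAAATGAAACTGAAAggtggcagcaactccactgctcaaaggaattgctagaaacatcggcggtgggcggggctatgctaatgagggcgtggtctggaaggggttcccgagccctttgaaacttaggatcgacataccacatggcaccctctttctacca
The search was for GAAA, any 2 bases and GAAA on both strands, which 3.75% of 33469 windows hold. Of the other 20 tested interferon-induced genes 0 passed, and the median of the 21 was -0.06. Differences of the 21 ran from -2.57 to 1.83. At an unadjusted p under 0.05 (limma) 3 were lower and 1 higher, as were 10.1% and 5.83% of all features. Mx1, Isg15 and Irf7, which interferon raises in most cells, had differences of -0.58, -0.09 and -0.26, and Ifi27 of 0.16, with adjusted p from 0.312 to 0.666.

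Further rises included those of Tmem125, a membrane protein above background on 4 of 5 2c arrays (1.19, SE 0.20), and Exoc3l4, related to an exocyst subunit (0.84, SE 0.12, adjusted p = 0.0189). Exoc3l4 was at -4.38, -4.33, -4.49, -4.29 and -4.92 in 2c and at -3.19, -3.45, -3.66, -3.89 and -4.00 in 4c, with no overlap. Steap3, a ferric reductase of iron uptake, was at -3.72, -3.71, -3.35, -3.46 and -3.74 in 2c and at -3.17, -3.18, -2.49, -2.94 and -3.11 in 4c. Its groups did not overlap either, and the rise was 0.62 (SE 0.10, adjusted p = 0.0272). Ak5, an adenylate kinase, also separated the groups, with 0.54 the highest of 2c and 0.76 the lowest of 4c (rise 0.58, SE 0.11).

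Smaller rises with the same sign in all 5 experiments were those of Il1rn, the interleukin-1 receptor antagonist (0.54, SE 0.10), Ggct, of the glutathione cycle (0.51, SE 0.10), Fbp2, the muscle form of fructose bisphosphatase (0.50, SE 0.10), and Ptprf, a receptor phosphatase (0.48, SE 0.09). Thap3 rose by 0.48 (SE 0.10), Tgif1, a repressor of TGF-beta signalling, by 0.42 (SE 0.07), Icmt, which methylates prenylated proteins, by 0.42 (SE 0.08) and Il6r, the receptor of interleukin-6, by 0.30 (SE 0.06). Spata21 and Ddhd1, a phospholipase, rose by 0.66 (SE 0.13) and 0.55 (SE 0.10). Stac, above background on 2 of 5 2c and 3 of 5 4c arrays, rose by 0.92 (SE 0.15), or by 0.46 with dim arrays set to their floor. It was the only called rise that passed as lower in 8c than in 4c, with 1 of 5 8c arrays above background. Adjusted p of these 11 genes ran from 0.0331 to 0.0491.

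The 15 largest falls named included genes of the Kupffer and stellate lists but none of the endothelial list, whose median fell less. Of 16 tested of 24 Kupffer cell markers 9 were lower, of 17 tested of 30 stellate markers 10, and of 16 tested of 26 sinusoidal endothelial markers 5, and 0 were higher. The medians were -2.97, -2.77 and -1.23, or -2.39, -2.70 and -0.89 without experiments 1 and 2. Over the 10, 6 and 8 members above background on all 2c and 4c arrays they were -2.02, -0.60 and -0.26. With all 15 arrays above background they were -0.66, -0.60 and -0.26. Both of these filters drop members that fell to background, so these medians too depend on the filter. When experiments 1 to 5 were left out in turn, 1, 0, 0, 8 and 0 Kupffer markers and 6, 4, 0, 6 and 0 stellate markers passed. Members that passed the filter only through the 2c arrays had to be lower in 4c, so these counts describe the fraction and are no measure of how much of a list fell. Fewer cells of a type and less RNA per cell cannot be told apart in bulk RNA.

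Bgn, biglycan of the matrix, was at 2.61, -0.79, 1.40, -0.03 and 0.59 in 2c and at -3.68, -5.19, -1.69, -2.16 and -4.10 in 4c. The groups did not overlap, and the gene was 17.4-fold lower (SE 0.73 on the log2 scale, adjusted p = 0.0368). Lrat, which stores retinol as esters in stellate cells, was at -2.10, -5.52, -3.52, -4.95 and -4.31 in 2c and was above background on no 4c array, so it was at least 6.31-fold lower (adjusted p = 0.0148). Colec11, a collectin of stellate cells, was at 1.52, -2.31, -0.41, -1.41 and -1.15 in 2c and at -4.73, -7.70, -3.37, -3.67 and -4.76 in 4c, with 4 of 5 4c arrays above background. Its difference was -4.09 (SE 0.76, adjusted p = 0.0396). Steap4, Ecm1, Vipr1, Col3a1 and Sparc, also of the stellate list, fell by 3.43 to 4.11 and were above background on 2 to 4 of 5 4c arrays. The members Acta2 and Pdgfrb did not follow, with differences of -0.08 and 0.23.

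Among Kupffer cell markers, C1qb, a subunit of complement C1q, was at 2.07, -1.72, 0.27, -2.10 and 0.22 in 2c and at -3.48, -4.71, -2.41, -3.25 and -4.07 in 4c. The lowest 2c array, of experiment 4, lay above the highest 4c array, of experiment 3, and the difference was -3.33 (SE 0.63, adjusted p = 0.0409). Cd68, a lysosomal protein of macrophages, fell by 1.65 (SE 0.34) and was above background on all 10 arrays. Clec4f, the receptor by which rodent Kupffer cells are defined, was at 3.03, -0.85, 0.95, -1.74 and 0.88 in 2c and at -2.98, -4.77, -2.20, -2.86 and -3.84 in 4c, and did not pass (difference -3.78, SE 0.80, adjusted p = 0.0564). The scavenger receptor Cd163 was above background on no 4c array and was at least 6.21-fold lower. The protease Ctss, above background on 1 of 5 4c arrays, fell by 3.82, or by 3.44 with dim arrays set to their floor. Anxa3, Lgals3 and Pilra, which are not in the Kupffer list, were above background on no 4c array. Their falls were of at least 8.15-fold for Anxa3, 9.57-fold for Lgals3 and 8.52-fold for Pilra. Ramp1 and Anxa2, also outside these lists, fell by 3.88 and 3.40, or by 3.44 and 2.32 with dim arrays set to their floor. They were above background on 2 and 1 of 5 4c arrays.

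Of the endothelial list, Lyve1, a hyaluronan receptor, was above background on 4 of 5 2c arrays and on no 4c array, at least 4.81-fold lower (adjusted p = 0.0145). Stab2, a scavenger receptor that defines the same cells, was above background on 4 of 5 2c arrays and on no 4c array and did not pass (at least 3.71-fold lower, adjusted p = 0.198). Vwf, Flt4 and Aqp1 had differences of 0.07, -0.01 and -0.03. Of 17 tested matrix genes 6 were lower (median -1.05), of 6 MHC class II genes 0 (3 at an unadjusted p under 0.05, limma; median -0.75, with Cd74, above background on 2 of 5 4c arrays, at -2.61 and an adjusted p of 0.103), and of 5 cholangiocyte markers 2, Prom1 (fall of 1.01, SE 0.16) and Epcam (fall of 0.61, SE 0.12), while Sox9 had a difference of -0.08. No tested marker of lymphocytes (6), neutrophils (2) or erythroid cells and platelets (4) passed with limma, and at an unadjusted p under 0.05 there were 0, 1 and 1.

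The size of these falls followed the experiment. The summed level of the Kupffer list was 4.32, 1.42, 2.66, 1.35 and 2.62 in the 2c arrays of experiments 1 to 5 and 0.72, 0.69, 0.80, 1.08 and 0.82 in the 4c arrays, a wider range in 2c than in 4c. The sum is carried by the members of highest signal, and single members varied in 4c too, as the levels of C1qb and Clec4f show. The median of the list was -4.97, -1.75, -2.48, -0.89 and -3.90 by experiment, and that of the stellate list -5.24, -1.09, -2.60, -1.90 and -3.40. The difference of Glul was -1.93, -2.71, -2.51, -1.53 and -2.42 by experiment. Without experiment 1, where the Kupffer median was farthest from 0, that median was -2.49. The pericentral median was then -0.35 and the S phase median -0.34. Leaving out experiment 1 thus gave no comparison free of a Kupffer difference. The Kupffer median is no separate support for that difference: 1 marker then passed. Of the 16 tested, 6 reached the filter only with 2c arrays counted and had to be lower in 4c. Whether transcripts of these other cells take part in the differences of the S phase and pericentral genes was not tested.

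**Figure D4:**
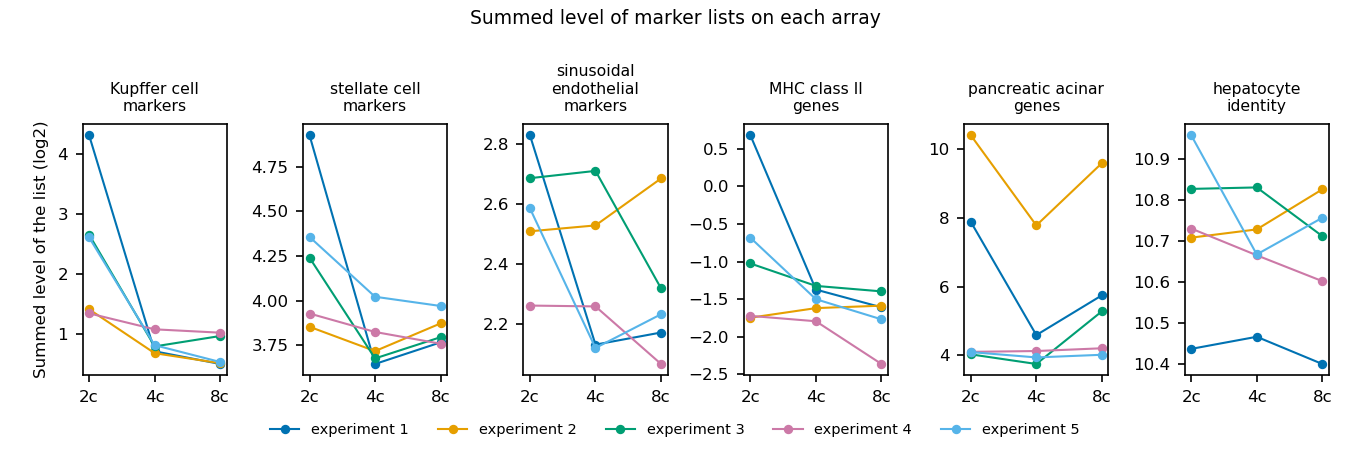
Summed level (log2) of 6 marker lists on the 2c, 4c and 8c arrays, with lines joining the arrays of 1 experiment; the scale differs between panels. The Kupffer sum is 1.35 to 4.32 in 2c and 0.69 to 1.08 in 4c, and the hepatocyte sum stays between 10.4 and 10.96 in these arrays. The acinar sum is 7.78 to 10.41 in 2c of experiment 1 and in the 2c, 4c and 8c arrays of experiment 2. It is 3.75 to 5.75 on the others, with 4.59 in 4c of experiment 1 and 5.28 in 8c of experiment 3.

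Lists of functions that most hepatocytes share held few or no calls, which for lists of this size is near the 0.266% and 1.02% called over all features and is read as no result about them. Of 33 hepatocyte identity genes 0 passed with limma (median 0.01), and the same held for 37 secreted plasma proteins (median 0.03), 40 cytochrome P450 genes (-0.05), 31 genes of fatty acid oxidation (-0.02), 23 of gluconeogenesis and glycolysis (0.06), 20 of bile acid handling (-0.06), 44 of the respiratory chain (-0.01), 48 ribosomal proteins (0.01), 22 of the unfolded protein response (0.02) and 19 immediate early genes (0.21). At an unadjusted p under 0.05 (limma), 10.1% of all features were lower and 5.83% higher. At that threshold the identity list had 1 gene lower and 1 higher, the plasma protein list 4 higher, and the P450 list 6 lower and 2 higher. Fatty acid oxidation had 4 lower and 3 higher, gluconeogenesis and glycolysis 1 and 4, bile acid handling 2 and 1, the unfolded protein response 2 and 6, and the respiratory chain 4, the ribosomal proteins 3 and the immediate early genes 7 higher and 0 lower. The immediate early median, 0.11 to 0.37 over the 29 alternatives, lay above the periportal median of 0.17. Nr1i3, the drug sensor CAR, had the largest difference among the identity genes (-0.83, SE 0.21, adjusted p = 0.0917). Afp, alpha-fetoprotein, had a difference of 0.14 (SE 0.07, adjusted p = 0.318).

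Cholesterol and fatty acid synthesis gave 3 calls. Of 26 genes of cholesterol synthesis 2 were lower, with a median of -0.11 that turned to 0.05 with the median as the scaling point. Acat2, which makes the acetoacetyl-CoA that the pathway starts from, was at 1.21, 1.19, 1.57, 1.71 and 2.42 in 2c and at 0.91, 0.76, 1.07, 1.38 and 2.05 in 4c. The groups overlapped because experiments differed more than fractions, and the fall of 0.38 (SE 0.06, adjusted p = 0.0272) was seen in 5 of 5 experiments. Insig2, which holds back sterol-regulated transcription and was the only call among 25 genes of fatty acid synthesis, fell by 0.41 (SE 0.07, adjusted p = 0.0396). The call of Acat2 was lost when the median, or the 75th percentile of every probe, was the scaling point.

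**Figure D5:**
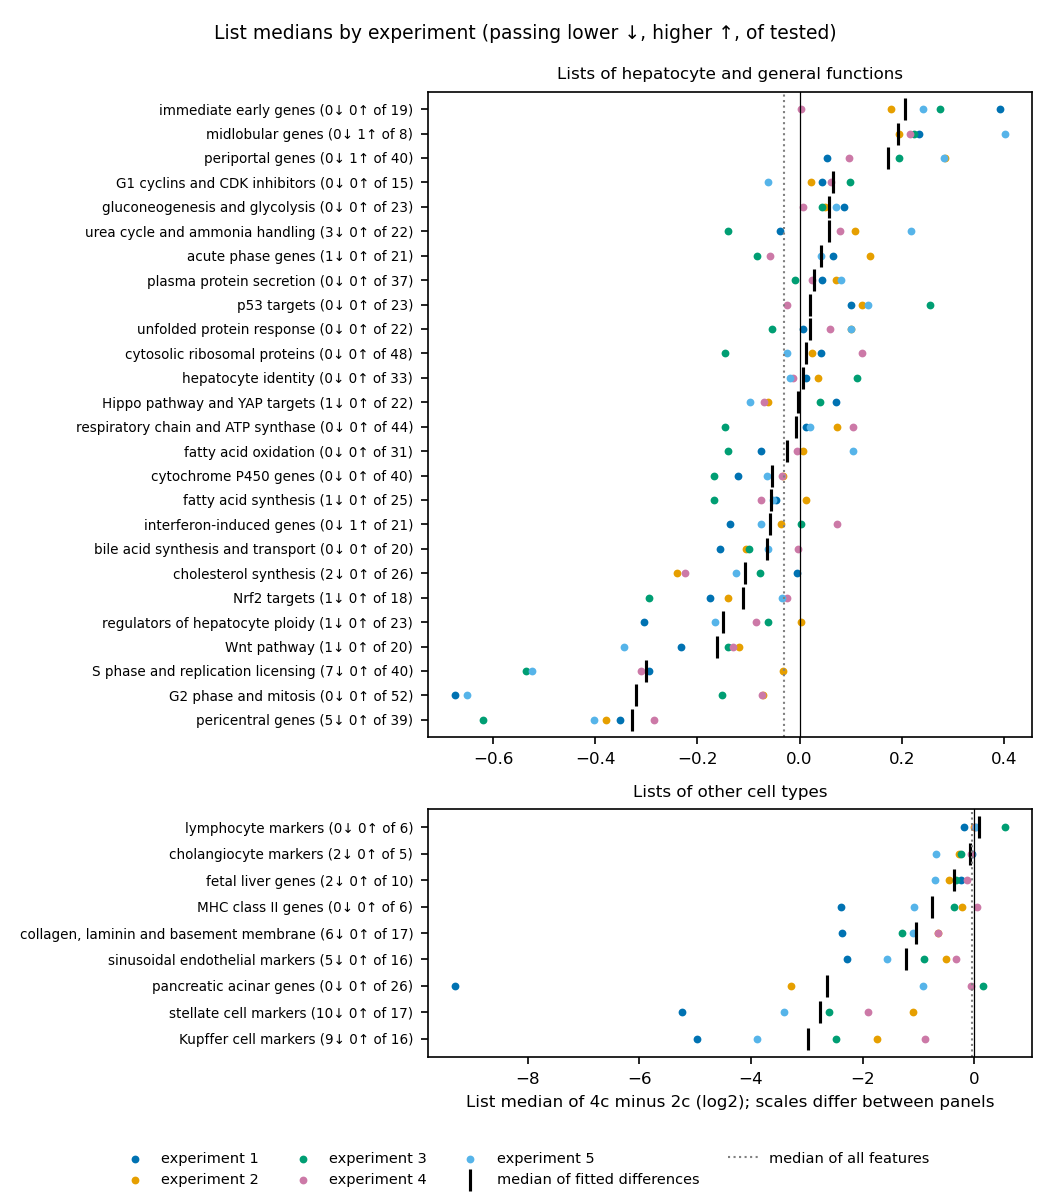
Median difference of 4c minus 2c (log2) of each gene list with at least 5 tested genes, for each experiment (coloured points) and from the fit (black bar); numbers give the genes that passed lower and higher of those tested. Pericentral, mitosis and S phase lists lie lowest in the upper panel at -0.33, -0.32 and -0.30, and the scale of the lower panel is wider, with Kupffer, stellate and acinar lists at -2.97, -2.77 and -2.63.

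A difference between the ages was tested as an interaction, the experiments at 12 and 14 weeks against those at 5 and 6 weeks. With limma 0 features passed (419 at an unadjusted p under 0.05, lowest adjusted p 0.348). Car2 had a fitted difference of -1.21 in the older and -1.78 in the younger experiments, and Bst2 of 2.05 and 1.69. The slides of the arrays gave no contrast of their own here, since slide 1 held both arrays of experiments 1 to 3 and slide 2 those of experiments 4 and 5. Fitted on slide 1 alone or slide 2 alone, limma called 0 higher and 0 lower (1097 and 1288, and 262 and 1033, at an unadjusted p under 0.05). All 217 features kept their sign on each, which is no separate support, since 216 had the same sign in all 5 experiments. The pericentral median was -0.36 on slide 1 and -0.28 on slide 2, and the S phase median -0.32 and -0.35.

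No chromosome stood apart. Among features above background on all 10 arrays, the median difference by rn4 chromosome lay between -0.05 (chromosome 6, 594 features) and -0.01 (chromosome 20, 364 features) for the autosomes and X, and was -0.06 for 14 mitochondrial features. The scaling to each array removes any change that all chromosomes share.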

How the data were processed

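RNA of 15 hepatocyte fractions was measured on single-colour Agilent arrays. The deposited scanner files hold the processed intensity of each spot, background-corrected by Agilent Feature Extraction, which is version 11.5.1.1 per the file headers and 10.7.3.1 per the submitters' processing notes. The series' deposited value table holds the same intensity on a linear scale, which was an alternative. Control spots and outlier spots were left out, and spots of a probe were averaged. Of the 45598 probes, 39.6% to 47.4% per array were well above background, and 0 spots were saturated. The number of arrays limits the precision.

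Levels were computed as log2 of the deposited intensity minus each array's 75th percentile over the 16211 probes above background on all arrays. Features above background on at least 5 arrays were tested, with the probe of highest mean for each gene. Probes were named through RefSeq accessions and symbols where matched, and otherwise as in the files. limma 3.58.1 in R 4.3.3 fitted group and experiment over all 15 arrays, two-sided, and was tested on simulated data. Same-numbered 2c and 4c arrays deviated together from their group means (r from 0.33 to 0.79), and the labels number independent experiments, so the number was used as a block. For each 2c array that r exceeded its highest r with a 4c array of another number, which ran from 0.03 to 0.35.

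Where a gene was above background on no array of a fraction, the fold is a lower bound: the other fraction's mean against, per array, the higher of the gene's own level and the lowest level among probes above background. The members and gene lists were chosen with earlier results of these data known. Named genes were the 15 largest rises and 15 largest falls with a symbol, for each list its 6 passing members of largest change (the 2 brightest if it had none), and a set always named. Genes outside this rule were chosen after their values were seen: Pcp4l1, Prim1, Aurka, Brca1, Tcf19, Ncapd3, Rfc2, Slc13a3, Cyp7a1, Rhbg, Ctnnbip1, Hal, Arg1, Hamp, Cryab, Eln, Fmo1, Csrp2, Mx1, Isg15, Irf7, Ifi27, Il6r, Stac, Acta2, Pdgfrb, Cd68, Vwf, Flt4, Aqp1, Cd74 and Nr1i3. A few genes counted in the lists are not reported here by name. Alternatives changed the scaling, background correction, filter, probe rule, block, slide and arrays used.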

Additional observations from a re-analysis of the deposited data

Results flagged for a closer look

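For 155 genes and list medians, the 4c minus 2c difference of each experiment was compared with those of the other 4, and 7 had 1 experiment far from the rest by Dixon's criterion (gap over 0.71 of the range). Chance flags about 1 in 20. In experiment 3 the difference was -0.84 for Cyp2e1 (others -0.43 to -0.28), 0.239 for Afp (0.108 to 0.138) and 0.558 for Etfb, an electron carrier of fatty acid oxidation (0.161 to 0.230). In experiment 1 it was 0.122 for Ddhd1 (0.596 to 0.780) and -12.8 for Prss1 (-2.42 to 0.895), whose levels are given with the acinar genes. In experiment 2 it was 0.233 for Ldha, lactate dehydrogenase A (0.0300 to 0.0879). The median of the midlobular list was 0.402 in experiment 5 and 0.195 to 0.233 in the others.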

How the results depend on the processing

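Among 62 named genes that passed, the direction held in all 1769 pairs of gene and alternative that could be computed, and the call held in 537. Alternatives that change only the block or use the 10 arrays alone leave the difference as it is. Where all 5 experiments share a sign, leaving out an experiment or using 1 slide cannot turn it. Counts higher and lower in 4c, 45 and 172 here, were 45 and 102 with quantile normalization, 44 and 91 with median scaling, 73 and 114 when scaled to the 75th percentile of every probe, and 7 and 47 with normexp. With features above background on all 15 arrays they were 38 and 92, and with slide in place of the experiment 1 and 4. Of the calls, 20.7% were higher here, and 30.6%, 32.6% and 39.0% under the first 3 scalings. Without the replicate block, which holds the pairing of the experiments, 0 and 3 passed, and 0 and 0 with the 10 arrays and the replicate block. The counts were also 0 and 0 with no filter on dim probes (844 and 2516 at an unadjusted p under 0.05, limma), on slide 1, on slide 2, and without experiments 1 and 2 (421 and 816 unadjusted). Leaving out 1 experiment gave 0 to 61 higher and 3 to 127 lower, and leaving out 1 array 1 to 219 higher and 5 to 332 lower; the extremes were without 2c of experiment 4 (219 and 332) and without 2c of experiment 5 (1 and 5), and each of the 10 arrays moved a count by over 1.5 times. The age interaction passed in 15 features with normexp against 0 here. Of 37 list medians, 19 changed sign in some alternative. Those of the pericentral, periportal, midlobular, S phase, mitosis, Wnt, Kupffer, stellate, endothelial and immediate early lists were among those that did not. Pericentral genes lower were 5 here and 0 without experiment 5. The cause of these changes was not tested.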
